A study of Homo sapiens with 6 samples.

Results

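The genes described here mainly encode the general transcription factors of RNA polymerase II: the TATA-binding protein TBP, its associated factors (TAFs), and the subunits of TFIIA, TFIIB, TFIIE, TFIIF and TFIIH. They were chosen by gene symbol, in a rule made with earlier results of these data known. It takes every probe set with 1 gene symbol that is TAF followed by a digit, starts with GTF2, or is TBP, TBPL1, ERCC2, ERCC3, CCNH, CDK7 or MNAT1. Pseudogenes were left out. By symbol the rule also takes in related proteins outside these factors, such as TBPL1, TAF5L, TAF6L, TAF15 and GTF2IRD1, and they count as members below. The rule found 101 of the 49372 probe sets on the array, for 44 of 18132 genes. Of these, 13 probe sets belonged to TAF1A, TAF1B, TAF1C and TAF1D, the TAFs of polymerase I, which are described apart from the other 88 probe sets and 40 genes.

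The cells were ARPE-19, an established line from human retinal pigment epithelium, plated in 6-well dishes. They were given 2.5 µg per well of a GFP plasmid as the control or of a plasmid with GFP and satellite alpha (SATalpha), a repeat found at human centromeres. Each plasmid was used in 3 wells, each measured on 1 Affymetrix 3′ expression array, and both groups therefore carry transfected DNA and a GFP gene. The labels do not say whether the 3 wells were separate cultures, so the p-values rest on well-to-well spread that may be technical. In such bulk samples fewer cells of a type and less RNA per cell cannot be told apart. The medians of the 6 arrays ran from 5.29 to 5.32 (log2). Of 11 measured markers of retinal pigment epithelium 5 were above the floor: MITF (8.15 with GFP), OTX2 (8.37), SERPINF1 (6.12), PMEL (5.70) and TYR (5.31). That floor, a mean log2 level of 5.19, is the lowest at which a gene was tested. RPE65 (3.48), RLBP1 (4.20), BEST1 (4.63) and TYRP1 (3.54) were below it. Markers of other cell types were above it too, in 3 of 5 for neurons and 2 of 4 for photoreceptors. The counts were 2 of 5 for epithelium, 1 of 5 for immune cells and 0 of 6 for fibroblasts.

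Transcription of protein-coding genes starts with TFIID, in which TBP and the TAFs read the core promoter. TFIIA and TFIIB then fix TBP on DNA, TFIIF brings in the polymerase, and TFIIE recruits TFIIH, whose helicases open the DNA and whose kinase module (CDK7, cyclin H and MAT1) phosphorylates the polymerase tail. Several TAFs hold each other through histone-like folds, in pairs such as TAF11 with TAF13, TAF4 with TAF12 and TAF6 with TAF9. For RNA polymerase I the same TBP joins TAF1A to TAF1D in the complex SL1, which starts ribosomal RNA synthesis.

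The promoters of TAF13, TAF1D and MNAT1, which had the largest differences among the tested members, are shown with that of GTF2B. They are RefSeq sequences (GRCh38.p14) from 250 bases before to 50 bases after the annotated start, read 5′ to 3′ on the gene's strand. GTF2B is shown because its window held the letters that TBP itself is known to bind. Capitals mark matches on either strand to 4 motifs. These were the TATA box, searched as TATAAA, and the GC box that SP1 is known to bind, searched as GGGCGG. The others were the core of ETS factor sites, searched as CCGGAAG, and the CCAAT box, searched by the letters of its name. None of the 4 contains another.
TAF13 (chr1:109075954-109076253, minus strand): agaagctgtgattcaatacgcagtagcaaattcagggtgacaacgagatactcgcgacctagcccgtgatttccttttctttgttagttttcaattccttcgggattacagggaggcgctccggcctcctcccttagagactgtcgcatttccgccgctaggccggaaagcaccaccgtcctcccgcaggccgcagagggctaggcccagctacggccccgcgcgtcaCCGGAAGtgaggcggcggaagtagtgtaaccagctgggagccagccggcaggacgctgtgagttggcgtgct
TAF1D (chr11:93741446-93741745, minus strand): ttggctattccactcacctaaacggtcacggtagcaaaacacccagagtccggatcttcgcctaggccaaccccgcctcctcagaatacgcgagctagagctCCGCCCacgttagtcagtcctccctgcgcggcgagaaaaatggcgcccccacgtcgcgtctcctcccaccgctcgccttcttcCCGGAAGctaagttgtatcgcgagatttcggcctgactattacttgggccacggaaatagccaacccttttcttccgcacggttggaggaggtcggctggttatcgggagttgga
MNAT1 (chr14:60734511-60734810, plus strand): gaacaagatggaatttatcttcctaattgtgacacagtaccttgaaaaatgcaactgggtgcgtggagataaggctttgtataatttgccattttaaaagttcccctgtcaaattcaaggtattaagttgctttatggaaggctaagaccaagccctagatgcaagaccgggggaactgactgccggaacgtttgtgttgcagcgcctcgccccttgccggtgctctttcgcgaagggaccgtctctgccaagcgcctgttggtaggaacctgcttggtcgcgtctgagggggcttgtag
GTF2B (chr1:88891518-88891817, minus strand): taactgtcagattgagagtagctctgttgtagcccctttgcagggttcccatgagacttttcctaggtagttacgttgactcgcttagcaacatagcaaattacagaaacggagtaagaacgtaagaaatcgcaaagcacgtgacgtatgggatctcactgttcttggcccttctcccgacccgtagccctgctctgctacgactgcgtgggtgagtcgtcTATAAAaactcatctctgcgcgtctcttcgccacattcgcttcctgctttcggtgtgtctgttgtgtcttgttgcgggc
In the TAF13 window the only match was an ETS site that began 22 bases before the start. TAF1D held an ETS site 65 bases before the start and a GC box on the opposite strand 148 bases before it. MNAT1 held none of these letters. GTF2B held TATAAA 29 bases before the start.

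Promoter windows were listed for 37 of the 44 genes, as 47 windows in all. TATAAA was in 2 of these 47 windows (4.26%), against 11.5% of 35116 windows of the same length for all genes. The ETS letters were in 16 windows (34.0%, against 10.3% of all windows). GC boxes were in 27 (57.4%, against 45.0%) and CCAAT in 18 (38.3%, against 34.6%). Among windows of genes that rose with SATalpha, 1 of 4 held the ETS letters, and among windows of genes that fell, TAF1D included, 2 of 11 did. For GC boxes the counts were 1 of 4 and 8 of 11, for CCAAT 2 of 4 and 2 of 11, and for TATAAA 0 of 4 and 1 of 11. No difference between these windows was tested. These are counts of letters, and some windows are alternative starts of 1 gene that share sequence.

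Satellite alpha was accompanied by a rise of TAF13 and smaller rises of TAF11 and TAF7, while TBP, TFIIB and subunits of TFIIF and TFIIH fell by small amounts. The largest decrease was in TAF1D of the polymerase I complex. Each gene was represented by its brightest probe set, and 33 of the 40 genes lay above the floor and were tested, with polymerase I again apart. Of these 33 genes, 3 rose, 8 fell (TBPL1 and GTF2IRD1 among them) and 22 did not pass limma's adjusted p of 0.05. That is 9.09% higher, where 7.72% of all 10879 tested genes were higher, and 24.2% lower, where 13.0% of all were lower. In both directions together, 33.3% of the members and 20.8% of all tested genes passed. The groups did not overlap in 15 of the 33 genes, with SATalpha above in 6 (background 14.4%) and below in 9 (background 23.2%), where 37.6% of all tested genes were apart in either direction. The median difference over the 33 genes was -0.04 on the log2 scale (SATalpha minus GFP), beside -0.02 over all tested genes. Over single probe sets, which include the dim ones, 2 of 88 were higher (background 4.18%) and 6 of 88 lower (background 4.19%), and 9.09% passed in either direction where 8.36% of all 49293 probe sets did, a share near the background. The counts changed when 1 array was left out, over all genes too. Without GFP replicate 1, 1 member rose and 2 fell, and 1216 of all 10879 tested genes passed instead of 2259. The number of members that fell was 5 without GFP replicate 2, 4 without GFP replicate 3 and 5 without SATalpha replicate 1. Over all tested genes, 1517, 1708 and 1396 passed in these fits. Of the 11 members that passed with all 6 arrays, 3 passed whichever array was left out, namely TAF13, MNAT1 and TBPL1. The matching share over all tested genes was not counted, so this count cannot be read as a trait of the members.

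**Figure D1:**
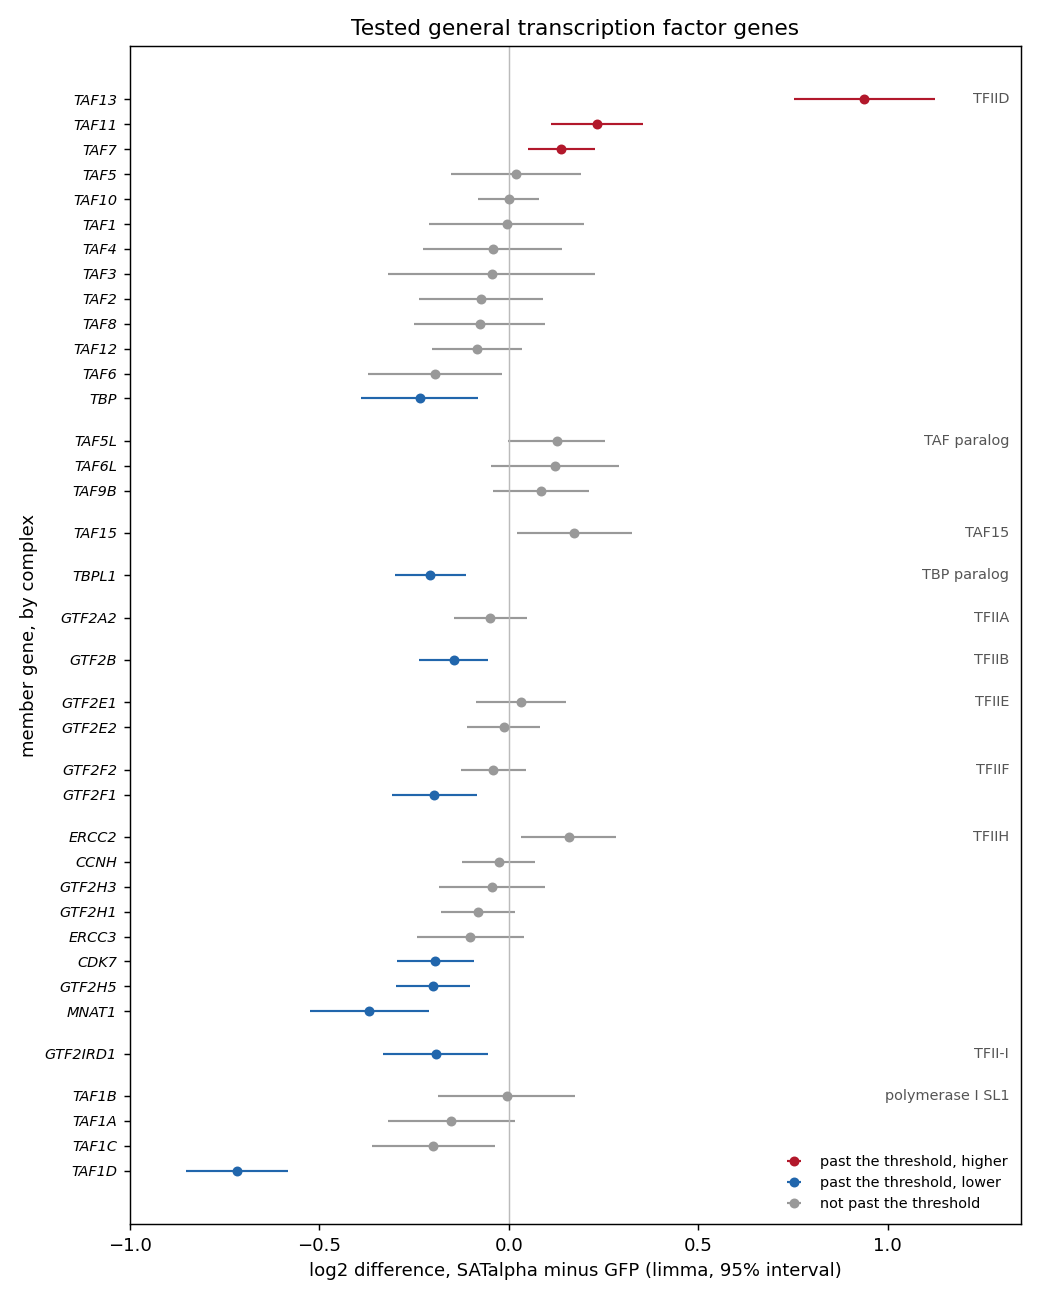
The horizontal axis gives the log2 difference (SATalpha minus GFP, n = 3 arrays per group) with limma's 95% interval for the 37 tested genes, grouped by complex on the vertical axis. TAF13 at 0.94 and TAF1D at -0.72 lie apart from the other genes, whose differences run from -0.37 to 0.23.

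Within TFIID, 3 of the 12 tested TAF subunits rose and 9 did not pass, which is 25.0% higher where 7.72% of all tested genes were higher. TAF13, a small histone-fold subunit, stood at 5.61, 5.86 and 5.81 on the GFP arrays and at 6.81, 6.61 and 6.68 on the SATalpha arrays. The groups did not overlap, and the lowest SATalpha value was well above the highest GFP value. The difference was 0.94 (SE 0.09, limma adjusted p = 6.06e-06), a 1.92-fold increase, which ranked 4 among increases over all tested genes. Leaving out any 1 array gave 0.86 to 0.99, and TAF13 passed each time. It had 1 probe set on the array, of the type whose probes can match several transcripts, so no second probe set of TAF13 could be compared. Its GFP level was near the floor, where differences on a normalized array are less precise and may be understated or overstated.

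TAF11, the histone-fold partner of TAF13, moved the same way by less. Its values were 7.96, 7.97 and 7.98 with GFP and 8.21, 8.29 and 8.10 with SATalpha. The groups did not overlap, the GFP values were nearly equal, and the SATalpha values spread more widely. TAF11 rose by 0.23 (SE 0.06, limma adjusted p = 0.0105). The 2 further TAF11 probe sets stood at 0.16 and 0.03, neither past the threshold over probe sets. The call was lost without GFP replicate 1 (0.23, adjusted p = 0.0518) and with the mean of all probe sets (0.14, adjusted p = 0.0643), in a range of 0.00163 to 0.0643 over the alternatives.

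TAF7, which binds TAF1 and restrains its acetyltransferase activity, stood at 10.16, 10.13 and 10.26 with GFP and at 10.30, 10.33 and 10.33 with SATalpha. GFP replicate 3 was close to the SATalpha values, without overlap. The difference was 0.14 (SE 0.04, limma adjusted p = 0.0298). Only 2 of the 6 fits that left out an array kept the call; GFP replicates 1 and 2 and SATalpha replicates 1 and 2 each ended it when left out (0.13, 0.11, 0.15 and 0.13), as did a fit without a mean-variance trend.

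TBP, the subunit that bends TATA DNA, went the opposite way from these TAFs. It stood at 6.85, 6.75 and 6.81 with GFP and at 6.64, 6.60 and 6.45 with SATalpha, and the groups did not overlap. The difference was -0.24 (SE 0.07, limma adjusted p = 0.0328). The 2 further TBP probe sets stood at -0.20 and -0.08, so all 3 were on the lower side. The one at -0.08 had a mean level of 3.46, below the floor. Leaving out GFP replicate 1, 2 or 3 ended the call (-0.21, -0.26 and -0.23), and so did leaving out SATalpha replicate 3 (-0.18). It also ended with no filter on low values, with the mean of all probe sets (-0.17) and without _s_ and _x_ probe sets (-0.20), and the adjusted p ran from 0.0336 to 0.130 over the alternatives.

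TAF1, the largest TFIID subunit and its scaffold, did not pass. Its values were 6.08, 6.03 and 5.83 with GFP and 6.02, 5.82 and 6.10 with SATalpha, and the groups overlapped. The difference was -0.0056 (SE 0.10, limma adjusted p = 0.978), with a 95% interval of -0.21 to 0.20. TAF10, a histone-fold subunit that TFIID shares with the coactivator SAGA, had the narrowest interval of the TAFs, -0.08 to 0.08 around a difference of 0.0002. Its other probe set differed by -0.10. The remaining subunits, TAF2, TAF3, TAF4, TAF5, TAF6, TAF8 and TAF12, differed by -0.19 (TAF6) to 0.02 (TAF5). TAF6 had an adjusted p of 0.114, and its SATalpha values were 7.54, 7.89 and 7.52 against 7.82, 7.82 and 7.89 with GFP, so that SATalpha replicate 2 lay among the GFP values.

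**Figure D2:**
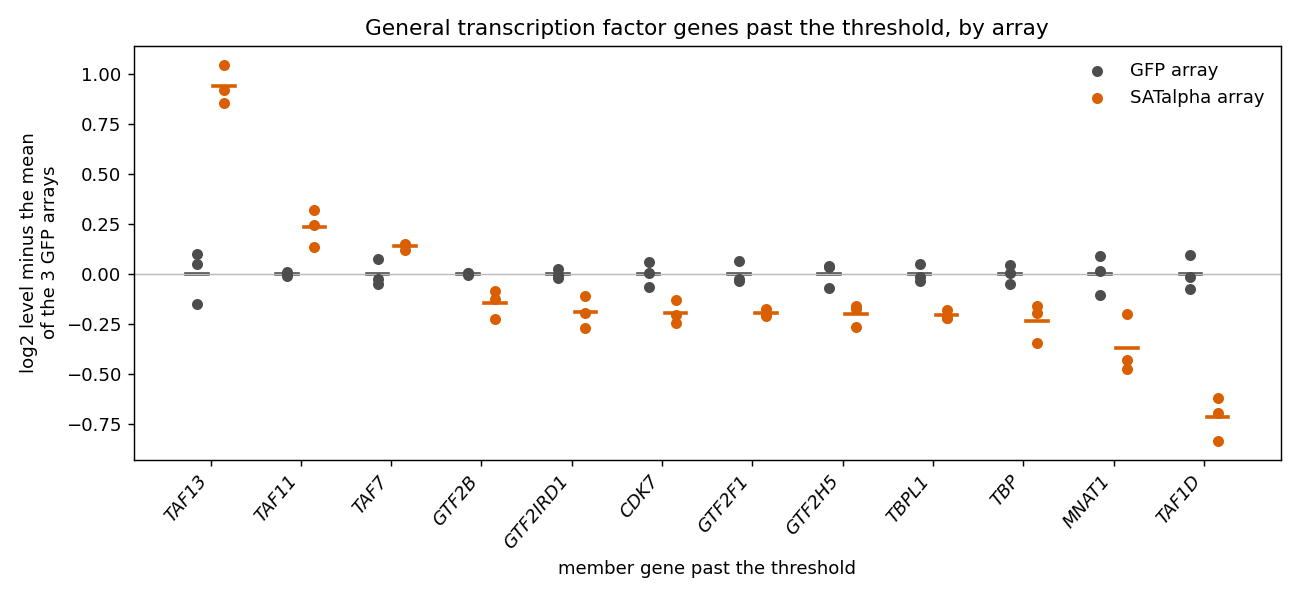
The vertical axis gives the log2 level on each array minus the mean of the 3 GFP arrays, for the 12 genes past the threshold on the horizontal axis, with a bar at each group's mean. The groups overlapped in none of these 12 genes, which were picked by p on the same arrays, so this adds no support of its own. The SATalpha values of TAF13 and TAF1D lie farthest from 0.

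The tested TAF paralogs, TAF5L, TAF6L and TAF9B, did not pass. TAF5L and TAF6L, which take the places of TAF5 and TAF6 in SAGA, differed by 0.13 (adjusted p = 0.157) and 0.12 (adjusted p = 0.298). In both, the 3 SATalpha values were above the 3 GFP values. TAF9B, a paralog of TAF9, differed by 0.09 (adjusted p = 0.333). TAF15, an RNA-binding protein found with a fraction of TFIID, differed by 0.17 (adjusted p = 0.101), with all 3 of its probe sets on the higher side (0.09 to 0.19).

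TBPL1, the TBP paralog that serves promoters without a TATA box, stood at 9.40, 9.31 and 9.33 with GFP and at 9.17, 9.13 and 9.13 with SATalpha. The groups did not overlap and the values within each were close. It fell by 0.21 (SE 0.04, limma adjusted p = 0.00417), a difference of -0.22 to -0.18 when any 1 array was left out, and passed each time. TBPL1 had 1 probe set.

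TFIIB, the single protein that links TBP to the polymerase, is encoded by GTF2B, the gene whose printed promoter holds TATAAA. It stood at 10.09, 10.08 and 10.09 with GFP and at 9.96, 9.86 and 10.00 with SATalpha. The groups did not overlap, and the GFP values were almost identical. GTF2B fell by 0.15 (SE 0.04, limma adjusted p = 0.0272), a call kept in 1 of the 6 fits that left out an array. Leaving out any GFP array ended it (-0.14, -0.15 and -0.14 for replicates 1, 2 and 3), as did leaving out SATalpha replicate 1 (-0.15) or 2 (-0.11), or the mean-variance trend (adjusted p = 0.0883). GTF2A2, the small subunit of TFIIA, differed by -0.05 (adjusted p = 0.491) in its brightest probe set, while another of its probe sets fell by 0.15, past the threshold over all probe sets (limma adjusted p = 0.0359).

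For TFIIF, which escorts the polymerase to the promoter, 1 subunit passed. GTF2F1, the large subunit, stood at 8.06, 8.06 and 8.15 with GFP and at 7.89, 7.88 and 7.91 with SATalpha, without overlap. It fell by 0.20 (SE 0.05, limma adjusted p = 0.0171). The 4 dimmer GTF2F1 probe sets ran from -0.19 to 0.0045, and the mean of all 5 was -0.10, which did not pass (adjusted p = 0.152). GFP replicate 1, GFP replicate 3 and SATalpha replicate 1 each ended the call when left out (-0.21, -0.16 and -0.19). GTF2F2, the small subunit, differed by -0.04 (95% interval -0.13 to 0.05). Both subunits of TFIIE were near 0, with 0.03 for GTF2E1 (adjusted p = 0.723) and -0.01 for GTF2E2 (adjusted p = 0.868).

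Of the 8 tested genes of TFIIH, 3 fell and 5 did not pass, and 2 of the 3 that fell encode its kinase module. That is 37.5% lower, where 13.0% of all tested genes were lower. MNAT1 encodes MAT1, which assembles that module. Its values were 8.42, 8.34 and 8.22 with GFP and 7.90, 7.85 and 8.13 with SATalpha, and SATalpha replicate 3 came close to the lowest GFP value. MNAT1 fell by 0.37 (SE 0.07, limma adjusted p = 0.00299), the largest decrease among the polymerase II factors and a 1.29-fold change. It passed whichever array was left out, with differences of -0.45 to -0.31, and it had 1 probe set.

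CDK7, the kinase of the module, stood at 9.50, 9.45 and 9.37 with GFP and at 9.24, 9.20 and 9.31 with SATalpha, with the highest SATalpha value just below the lowest GFP value. CDK7 fell by 0.19 (SE 0.05, limma adjusted p = 0.0114). The call was lost without GFP replicate 1 (-0.16, adjusted p = 0.0781) and with the replicate number as a block (adjusted p = 0.0511). CCNH, the cyclin partner of CDK7, differed by -0.03 (adjusted p = 0.728), with a 95% interval of -0.12 to 0.07. Whether CCNH differed from CDK7 or MNAT1 in its response was not tested.

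GTF2H5, the small stabilizing subunit of the TFIIH core, was measured at 10.03, 9.92 and 10.02 with GFP and at 9.82, 9.83 and 9.72 with SATalpha. The groups did not overlap. GTF2H5 fell by 0.20 (SE 0.05, limma adjusted p = 0.00685). Its other probe set, with a mean level of 3.30, below the floor, differed by 0.25 and did not pass over probe sets (limma adjusted p = 0.248). The mean of both probe sets differed by 0.03 (adjusted p = 0.805), so the direction depends on whether the dim probe set is counted. The call was also lost without GFP replicate 1 (-0.18, adjusted p = 0.0506). The helicase genes ERCC2 and ERCC3 did not pass, with 0.16 for ERCC2 (adjusted p = 0.0736) and -0.10 for ERCC3 (adjusted p = 0.302). The 3 ERCC2 probe sets were all on the higher side, at 0.12 to 0.23, but the dimmer ones, with mean levels of 4.63 and 5.15, were below the floor. GTF2H1 and GTF2H3, of the core, differed by -0.08 and -0.04, and the other 7 probe sets of GTF2H1 by -0.19 to 0.07.

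GTF2IRD1, a DNA-binding protein of the TFII-I family that is no part of the initiation complex, stood at 7.17, 7.12 and 7.14 with GFP and at 6.87, 7.03 and 6.94 with SATalpha. It fell by 0.19 (SE 0.06, limma adjusted p = 0.0474), just inside the threshold. The call was kept in 1 of the 6 fits that left out an array; leaving out GFP replicate 1, 2 or 3 ended it (-0.18, -0.20 and -0.19), as did leaving out SATalpha replicate 1 (-0.15) or 3 (-0.19). It also ended with no filter on low values, without _s_ and _x_ probe sets and under quantile normalization (-0.18).

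All 4 TAFs of polymerase I were tested. TAF1D stood at 8.81, 8.70 and 8.65 with GFP and at 8.10, 7.89 and 8.03 with SATalpha. The groups were far apart relative to their spread. TAF1D fell by 0.72 (SE 0.06, limma adjusted p = 4.16e-06), a 1.64-fold decrease that ranked 32 among decreases over all tested genes, and it passed whichever array was left out (-0.76 to -0.66). It had 1 probe set of its own, of the type in which some probes can match other transcripts. The annotation listed 5 further probe sets for TAF1D together with small nucleolar RNAs, and these shared probe sets differed by -0.04 to 0.21. TAF1C differed by -0.20 (adjusted p = 0.0784), with its 3 SATalpha values of 6.17, 6.25 and 6.27 below the GFP values of 6.40, 6.53 and 6.35. However, 3 more TAF1C probe sets, with mean levels of 3.64 to 4.93, below the floor, ranged from -0.07 to 0.26. TAF1A differed by -0.15 (adjusted p = 0.188) and TAF1B by -0.0057 (adjusted p = 0.975).

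The remaining 7 genes were too dim to be tested at the gene level: GTF2A1, GTF2H4, GTF2I, GTF2IRD2, GTF2IRD2B, TAF4B and TAF7L, with mean levels of 2.39 (GTF2H4) to 5.04 (GTF2IRD2). A further 25 probe sets listed a gene of this kind together with another gene, and were left out of the members by the rule on 1 symbol. TAF9, GTF2H2, TAF1L and GTF2A1L were represented by such shared probe sets alone. The 4 probe sets listed for both TAF9 and AK6 differed by -0.22 to 0.23, and 2 of them passed over all probe sets (limma), but they cannot be assigned to either gene.

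Probe sets of the same gene did not always move together. Of the 26 member genes with more than 1 probe set, 10 had all of them on one side of 0 and 16 had some on each side. Some of these probe sets were below the floor, such as 1 of TAF9B with a mean level of 3.12. The matching share over all genes was not counted, so the split cannot be read as a trait of the members. Among the 12 genes that passed, 8 had 1 probe set. Of the 4 with several, TBP and TAF11 had all on one side and GTF2F1 and GTF2H5 did not. In the fit over all probe sets, the brightest probe sets of GTF2B, TAF7, TBP and GTF2IRD1 did not pass (limma adjusted p = 0.0549 to 0.0929). TAF3, which reads methylated histone H3, had probe sets from -0.31 to 0.08, all with mean levels near the floor.

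**Figure D3:**
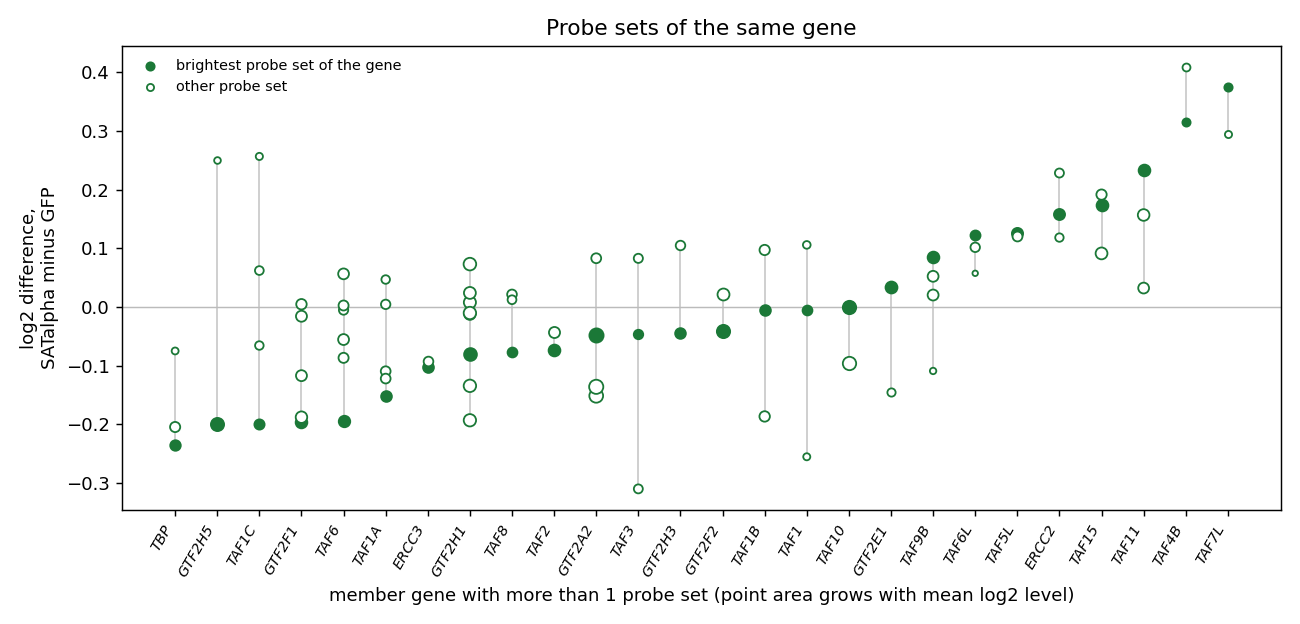
Each column is 1 of the 26 member genes with more than 1 probe set, and the vertical axis gives each probe set's log2 difference (SATalpha minus GFP). Filled points are the brightest probe set of a gene, and point area grows with mean level; in GTF2H5 the bright probe set lies at -0.20 and the dim one at 0.25.

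Other genes of the transcription machinery were taken from 5 lists. Beside the counts below, 7.72% of all tested genes were higher and 13.0% lower. Of 12 tested RNA polymerase II subunits, 1 rose and 3 fell, with a median difference of -0.0083. POLR2I and POLR2F, small subunits of the enzyme, fell by 0.20 (adjusted p = 0.00281) and 0.18 (adjusted p = 0.00284), and POLR2L rose by 0.12 (adjusted p = 0.0484). The other POLR2F probe set differed by 0.07. Of 30 tested subunits of Mediator, the bridge between activators and the polymerase, 1 rose and 5 fell, and the median difference was 0.0051. MED26, the subunit that binds elongation factors, fell by 0.38 (SE 0.05, limma adjusted p = 8.66e-05), and MED20 fell by 0.30 (adjusted p = 0.00134), although its dimmer probe sets stood at -0.11 and 0.10. MED1, which binds nuclear receptors, rose by 0.21 (adjusted p = 0.0203).

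Among 18 regulators of TBP and subunits of SAGA, 5 fell and 13 did not pass. The median there was -0.06. DRAP1, a subunit of the repressor NC2 that binds TBP on DNA, fell by 0.23 (adjusted p = 0.00259), and the SAGA subunit SUPT20H fell by 0.23 (adjusted p = 0.0105). Of 25 genes of pausing and elongation, 2 rose and 4 fell, around a median of -0.06. TCEA1, an elongation factor that rescues stalled polymerase, fell by 0.30 (adjusted p = 0.000114), although 1 of its dimmer probe sets stood at 0.13. MEPCE, which caps 7SK RNA, fell by 0.29 (adjusted p = 0.00189). HEXIM1, an inhibitor of the elongation kinase, rose by 0.20 (adjusted p = 0.0147), although its other probe sets ran from -0.29 to 0.10, and SUPT4H1 rose by 0.14 (adjusted p = 0.0160).

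In the list of polymerase I and III initiation, 3 of 32 tested genes rose and 4 fell (median -0.02). GTF3C4, a subunit of TFIIIC, rose by 0.51 (SE 0.06, limma adjusted p = 3.58e-05), and its other probe set differed by 0.30. POLR1F rose by 0.24 (adjusted p = 0.00623), with other probe sets at -0.02 and 0.05. POLR1D, shared by polymerases I and III, fell by 0.26 (adjusted p = 0.00214), with dimmer probe sets at -0.13 and 0.03, and GTF3C2 fell by 0.22 (adjusted p = 0.0112). The shares of the 5 lists past the threshold ran from 20.0% for Mediator to 33.3% for the polymerase II subunits, and the background was 20.8%. The shares that rose ran from 0% for TBP regulators and SAGA to 9.38% for polymerase I and III initiation (background 7.72%). The shares that fell ran from 12.5% for polymerase I and III initiation to 27.8% for TBP regulators and SAGA (background 13.0%). No difference between lists was tested.

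**Figure D4:**
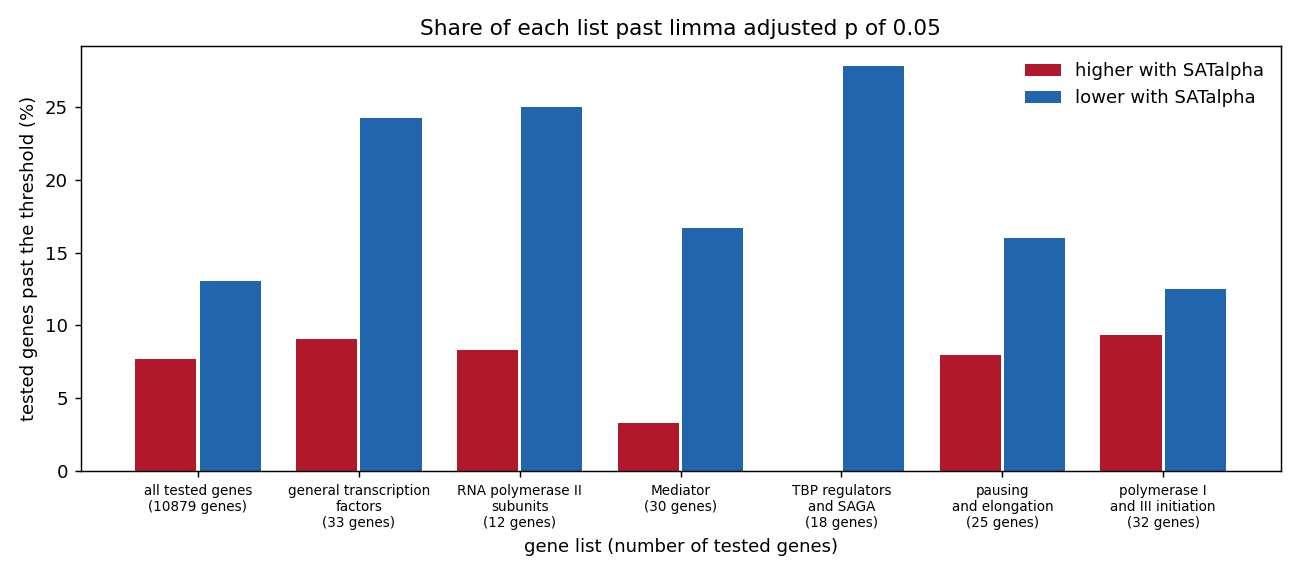
Bars give the percent of tested genes past limma's adjusted p of 0.05, higher or lower with SATalpha, for all tested genes, the 33 tested members (general transcription factors and related genes) and 5 other lists. The 33 members stand at 9.09% higher and 24.2% lower, and all tested genes at 7.72% and 13.0%.

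The genes whose levels over the 6 arrays were most like those of TAF13 were CCN3 (Pearson r = 1.00), SPCS2 (0.997), ADAMTS1 (0.995), C16orf87 (0.995) and CHMP1B (0.993). These 5 rose with SATalpha by 0.20 (SPCS2) to 0.50 (ADAMTS1). With 6 arrays in 2 groups such a likeness reflects mainly the group difference, and 213 tested genes had an r above 0.95.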

How the data were processed

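Total RNA of 6 transfected ARPE-19 wells was measured on Affymetrix 3′ expression arrays. The authors deposited log2 levels per probe set, and the array medians nearly match (5.29 to 5.32). MAS5 and RMA appear in the submitters' processing notes, with no word on which was used for these levels and no versions or settings. Probe sets were named from the platform annotation (44988 with 1 symbol, 1832 with several, 2473 not listed, 79 controls).

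For each of 18132 genes the brightest probe set was taken, and the 40% of genes with the lowest mean were left out (floor 5.19). SATalpha was compared with GFP by limma 3.58.1 in R 4.3.3 (lmFit, eBayes with a mean-variance trend) over 10879 genes, with Benjamini-Hochberg adjustment, a threshold of 0.05 and moderated standard errors (SE, median 0.06). The same fit was run over 49293 probe sets. The test was checked on simulated data. The number of arrays limits the precision.

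Members past the threshold, and TBP, TAF1, TAF11, TAF13, GTF2B and CDK7, were given on every array; of each other list up to 2 genes in each direction were named by smallest p. Members, lists and motifs were chosen with earlier results of these data known. The labels gave no batch or scan time, so none could be checked.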

Additional observations from a re-analysis of the deposited data

How the results depend on the processing

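TAF13, MNAT1, TBPL1 and TAF1D kept their direction and passed under every alternative that gave them a value, and TAF13 had 12 such alternatives (adjusted p = 3.44e-06 to 0.000618). The count of members that rose was 1 to 3 and of those that fell 2 to 8 when 1 array was left out, and the count over all genes was 1216 to 2520. With the mean of all probe sets 2 members rose and 5 fell, and 2113 of 10879 genes passed. Leaving out _s_, _x_ and _a_ probe sets kept 11 members, of which 1 fell and 0 rose by limma, with a median of 0.00020, and 481 of 5012 genes passed; it removed the probe set of TAF13 and most others, so fewer genes were tested. Leaving out _s_ and _x_ only, an alternative added after seeing the data, kept 28 members, of which 1 rose and 6 fell, and 1987 of 10020 genes passed. With the replicate number as a block, 2 members rose, 3 fell and 1300 genes passed in all. CDK7, GTF2F1, GTF2B, TBP, TAF7 and GTF2IRD1 lost their calls there (limma adjusted p = 0.0511 to 0.112). Same-numbered arrays did not deviate together from their group means (r = -0.0035, -0.24 and -0.29). With 3 arrays per group these correlations cannot decide whether the numbers pair the arrays, and the labels do not say. GTF2H5 changed sign with the mean of its probe sets (0.025), and TAF1, which was not called, changed sign without 1 array (-0.080 to 0.075). The cause was not tested. Quantile normalization and median centring left the median of all genes at -0.02 and -0.03. Dim probe sets limit the precision, and no signal over background was available.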
